A study of Oryza sativa with 6 samples.

Results

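The rice seed allergen and alpha-amylase/trypsin inhibitor genes were followed in developing seeds of a mutant and a wild-type line. They were taken as the features of the deposited table whose description contains "allergen" or "alpha-amylase/trypsin inhibitor", without SPIRAL1-like proteins. This gave 5 of 91080 features: RAG1, RAG2, RA16 and a pair named 17kDa alpha-amylase/trypsin inhibitor 1 and 2. Only 3813 features carry a description, so a relative without one could not be found this way. All 5 lie on chromosome 7, within 178 kb of each other.

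These genes encode small, cysteine-rich proteins of the same superfamily as the cereal prolamins, which are made in the endosperm, the storage tissue of the grain, and enter the secretory pathway. Relatives in wheat and barley block alpha-amylases and trypsin-like proteases of insects and other animals, and the rice proteins are best known as the major allergens of the grain. Their genes are switched on during grain filling, together with those of glutelins and prolamins, the main storage proteins of rice.

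The lines are near-isogenic, that is, bred to be alike except around a chosen stretch of the genome. NIL-gaf1 is the line with the genotype called mutant, and NIL-GAF1 the line called wild type. Both grew in a paddy field, and seeds were taken at 15 DAF, when the grain is filling. Each line has 3 libraries of total RNA. The labels do not say which plants, or how many, went into a library, so the spread that p-values rest on, that of these samples, may be technical.

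Libraries held 21200210 to 25402680 counts in the mutant and 17236796 to 22454000 in wild type. Where a line has its values listed, they follow the order of its libraries 1, 2 and 3. Levels are in normalized CPM, read counts scaled to library size with TMM factors (1.16 to 1.88 in the mutant and 0.627 to 0.716 in wild type) but not to gene length, and log2 fold changes are mutant over wild type. Rose, fell and passed refer to the quasi-likelihood test of edgeR, called where the Benjamini-Hochberg adjusted p lay below 0.05 (n = 3 per line). Of 22937 tested features 31.2% passed, 15.4% lower and 15.8% higher in the mutant, and in 49.0% the lines did not overlap. Over all tested features the log2 fold change had a median of 0.06, and 1.27 when libraries were scaled by total count alone, where 864 features were lower and 16473 higher. Directions are therefore relative to the typical gene. Sample titles carry the symbol gif2, also used for AGPL2, a subunit of the enzyme that makes ADP-glucose for starch. AGPL2 was at 1100, 1809 and 2482 normalized CPM in the mutant, against 2864, 2950 and 3172 in wild type, and its log2 fold change of -0.74 did not pass (edgeR adjusted p = 0.207) and was 0.38 with total-count scaling. The labels do not name the altered gene, so they could not be checked by its level.

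All 5 genes fell in the mutant, by 14.7 to 78.9 times, and for each of them the highest mutant library was below the lowest wild-type one. In whole seeds, fewer cells of a type and less RNA per cell cannot be told apart. Among all tested features, 15.4% fell and 23.8% had the 3 mutant libraries below the 3 wild-type libraries. The 5 genes had a median log2 fold change of -5.25, against 0.06 over all tested features. All 5 passed the filter on low counts, and no mutant library had fewer than 63 counts for any of them. Together they took 0.0178%, 0.117% and 0.366% of all counts in the mutant, against 2.61%, 2.53% and 3.01% in wild type. The lines did not overlap, and in fold terms the mutant libraries were far less alike than the wild-type ones. The mean share was 0.167% ± 0.179 in the mutant and 2.72% ± 0.253 in wild type (SD, n = 3 each), and the exact permutation test (two-sided) gave p = 0.1, the smallest that 3 against 3 allows. Without mutant library 3, the mutant mean was 0.0675%.

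RAG2, a seed allergenic protein, had the highest FPKM, a level scaled to gene length and depth, of the 5 in every library. It was at 33.9, 261 and 1131 normalized CPM in the mutant, against 17590, 17690 and 22390 in wild type. Mutant library 3 was the highest of its line and still lay far below each wild-type library. RAG2 (OS07G0214300, chromosome 7, 6258917 to 6259662, in coordinates of a build that the sources do not name) was 40.5-fold lower in the mutant (log2 fold change -5.34, SE 1.26, edgeR adjusted p = 0.0154). By FPKM it ranked 1190, 110 and 35 among all features in the mutant, against 9, 13 and 9 in wild type. A rank within a library does not depend on how libraries are scaled.

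RAG1, a further seed allergenic protein just before RAG2 on the chromosome, had the largest fall of the family. It was at 1.58, 33.2 and 147 normalized CPM in the mutant, against 4745, 3518 and 6087 in wild type. The mutant value in library 1 rests on 63 reads, with an exact Poisson 95% interval of 48.4 to 80.6 that covers counting error only. RAG1 (OS07G0214100, chromosome 7, 6254882 to 6255558) was 78.9-fold lower (log2 fold change -6.30, SE 1.42, edgeR adjusted p = 0.0129). Only 28 of 22937 tested features had a more negative log2 fold change. Its FPKM rank was 15258, 1232 and 258 in the mutant, against 25, 29 and 24 in wild type.

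RA16, named as an alpha-amylase/trypsin inhibitor, had the smallest adjusted p of the family. It was at 14.9, 83.2 and 309 normalized CPM in the mutant, against 4814, 4504 and 6217 in wild type. RA16 (OS07G0214600, chromosome 7, 6276107 to 6276753) was 38.2-fold lower (log2 fold change -5.25, SE 1.05, edgeR adjusted p = 0.00799).

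The pair of 17kDa inhibitors sits at the far end of the cluster and fell the least. Inhibitor 1 (OS07G0216600, chromosome 7, 6416024 to 6416707) stood at 11.4, 152 and 763 normalized CPM in the mutant, against 4826, 8502 and 6444 in wild type. It was 21.3-fold lower (log2 fold change -4.42, SE 1.28, edgeR adjusted p = 0.0326). Inhibitor 2 (OS07G0216700, chromosome 7, 6432377 to 6433104) stood at 33.0, 217 and 813 normalized CPM in the mutant, against 4529, 6176 and 4978 in wild type. It was 14.7-fold lower (log2 fold change -3.88, SE 1.02, edgeR adjusted p = 0.0231). Both were lowest in mutant library 1, as were the other members.

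**Figure D1:**
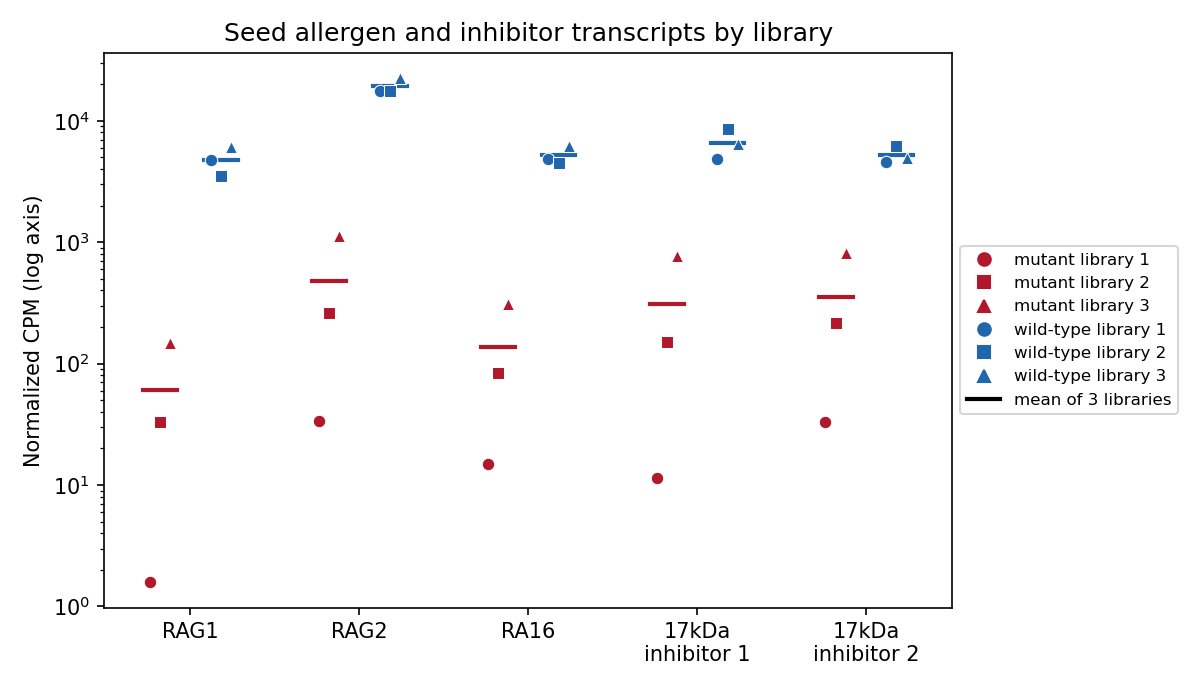
Normalized CPM on a log axis of the 5 genes in each mutant (red, left) and wild-type (blue, right) library, with marker shapes for libraries 1, 2 and 3 and a bar at the mean. Every gene is lowest in mutant library 1, and RAG1 spans 1.58 to 147 in the mutant against 3518 to 6087 in wild type.

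The spread between mutant libraries was itself large and took the same order in every member. The highest mutant library exceeded the lowest by 93.3 times for RAG1, 66.9 times for inhibitor 1, 33.4 times for RAG2, 24.7 times for inhibitor 2 and 20.8 times for RA16. In wild type the same ratio was 1.27 for RAG2 to 1.76 for inhibitor 1. Single libraries moved the calls. Without mutant library 2, only RA16 passed (edgeR adjusted p = 0.0442), and RAG1, RAG2, inhibitor 1 and inhibitor 2 were at 0.059, 0.0761, 0.117 and 0.0947. Without wild-type library 1, 2 or 3, RAG1, RAG2 and RA16 passed and both 17kDa inhibitors did not (edgeR adjusted p 0.0551 to 0.077). Without mutant library 3 all 5 passed, and they were 42.4-fold (inhibitor 2) to 279-fold (RAG1) lower, with 132-fold for RAG2, 107-fold for RA16 and 82.0-fold for inhibitor 1. The order of the mutant libraries was not particular to the family. Storage proteins took 0.397%, 7.06% and 21.1% of all counts in the mutant, against 34.4%, 41.0% and 36.4% in wild type. For storage protein genes with counts in every mutant library, the highest exceeded the lowest by 29.15 times (OS03G0766100) to 387.5 times (PROLM25).

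**Figure D2:**
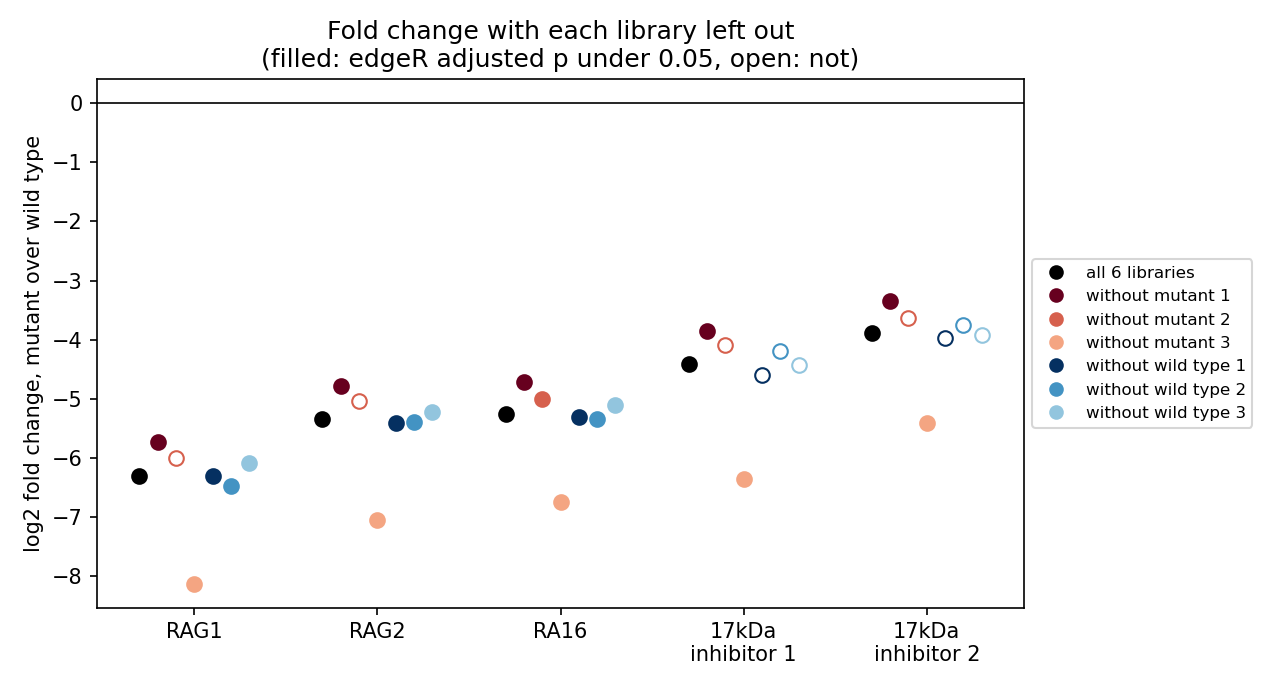
Log2 fold change of each gene with all 6 libraries (black) and with each library left out in turn (red shades for mutant, blue shades for wild type), filled where the edgeR adjusted p was under 0.05. All values are negative, and those without mutant library 3 are the most negative, at -8.12 for RAG1 and -5.41 for inhibitor 2.

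Levels of different genes were compared by FPKM. In wild type RAG2 stood apart from the rest of the family. RAG2 averaged 17100 ± 2353 FPKM (SD, n = 3), while inhibitor 1 averaged 6328 ± 1382, RA16 5318 ± 949, inhibitor 2 4743 ± 499 and RAG1 4712 ± 1327. The last 4 overlapped between libraries. Their order was RA16, inhibitor 1, RAG1 and inhibitor 2 in wild-type libraries 1 and 3 and differed in library 2, where RAG1 was last. In the mutant RAG2 was first, inhibitor 2 second and RAG1 last in each of the 3 libraries, though RAG2 and inhibitor 2 were nearly equal in library 1, at 85.5 and 85.3 FPKM, as were inhibitors 2 and 1 in library 3, at 1292 and 1291 FPKM. Mutant means were 796 ± 861 FPKM for RAG2, 615 ± 617 for inhibitor 2, 557 ± 656 for inhibitor 1, 266 ± 261 for RA16 and 111 ± 127 for RAG1 (SD, n = 3), so spreads between libraries were as large as the means.

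The make-up of the family's transcripts was compared after the values were seen. Shares within a library do not depend on how libraries are scaled. RAG1 held 1.67%, 4.45% and 4.66% of the 5 genes' counts in the mutant, against 13.0%, 8.71% and 13.2% in wild type. RAG2 held 35.5% ± 0.471 in the mutant and 46.9% ± 2.64 in wild type (SD, n = 3 each). The share of both was lower in every mutant library than in any wild-type library. Inhibitor 2 went the other way, with 34.8%, 29.1% and 25.7% in the mutant, against 12.4%, 15.3% and 10.8% in wild type. Inhibitor 1 (18.8% ± 6.18 in the mutant and 16.1% ± 4.32 in wild type) and RA16 (12.2% ± 3.11 in the mutant and 12.6% ± 1.27 in wild type) overlapped between the lines. For RAG1, RAG2 and inhibitor 2 the exact permutation test gave a two-sided p of 0.1, or 0.167 adjusted over the 5 shares, so none passed, and 3 against 3 libraries could not have passed. The 5 shares add up to the whole, so they are not independent, and reads of similar family members may have been split between them by the authors' counting, which was not measured.

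**Figure D3:**
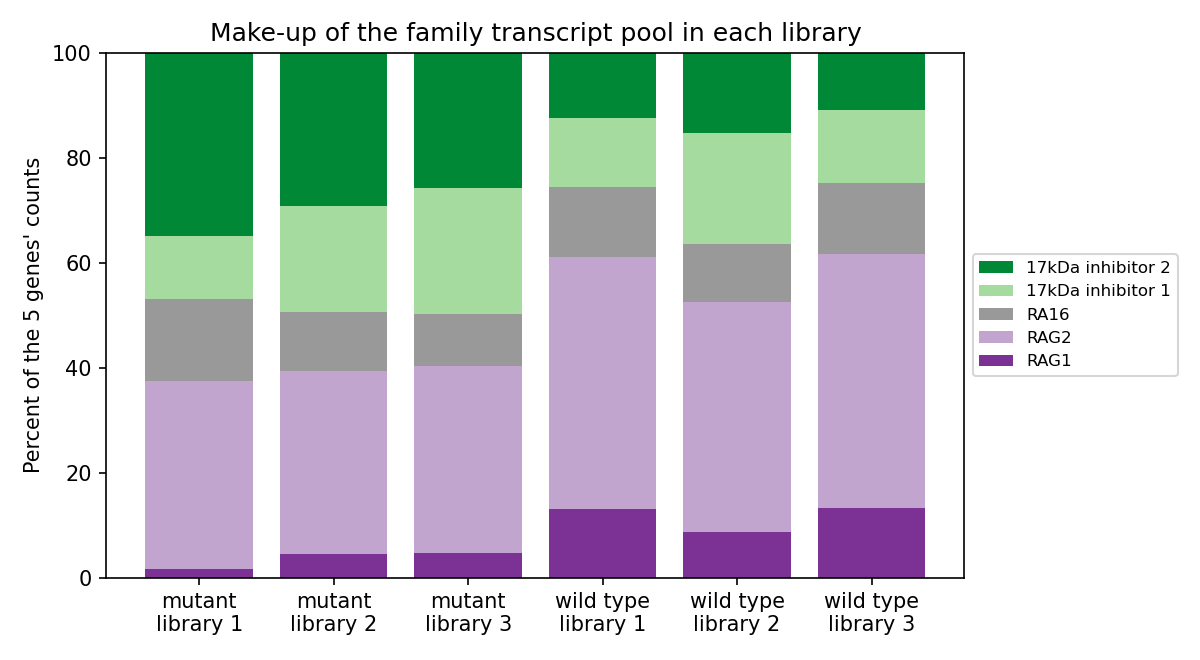
Percent of the counts of the 5 genes held by each one, as stacked bars for mutant libraries 1 to 3 (left) and wild-type libraries 1 to 3 (right). Inhibitor 2 takes 25.7% to 34.8% in the mutant and 10.8% to 15.3% in wild type, and RAG1 takes 1.67% to 4.66% in the mutant and 8.71% to 13.2% in wild type.

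Genes between and beside the 5 were read from the coordinates of the table. Within 100 kb of the cluster lie 72 other features, of which 53 had no counts in any library and 9 were tested. Of the 9, 7 fell, none rose and 2 did not pass, against 15.4% lower among all tested features. Without mutant library 2 the falls numbered 2, and without wild-type library 1 they numbered 3.

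The 7 falls were of very different size. Those at OS07G0213600, OS07G0213800 and OS07G0215500, which carry no description, were abundant in wild type, and their log2 fold changes of -5.71 to -3.90 lay within the range of the 5 genes. OS07G0213800 (6244163 to 6244880) stood at 19.2, 206 and 911 normalized CPM in the mutant, against 14570, 15330 and 17430 in wild type. It lies next to RAG1 and was 41.7-fold lower (log2 fold change -5.38, SE 1.31, edgeR adjusted p = 0.0172). Its FPKM of 14520, 13390 and 15830 in wild type was below that of RAG2 and above that of each other member in the same library. OS07G0213600 (6239015 to 6239615) stood at 0.401, 21.2 and 86.1 normalized CPM in the mutant, against 1990, 1483 and 2176 in wild type, and was 52.5-fold lower (edgeR adjusted p = 0.0203), with only 16 counts in mutant library 1. OS07G0215500 (6336198 to 6336838) lies between RA16 and inhibitor 1. It was at 120, 454 and 1786 normalized CPM in the mutant, against 10800, 12760 and 11680 in wild type, and was 14.9-fold lower (edgeR adjusted p = 0.0195).

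These 3 genes together took 0.0262%, 0.107% and 0.322% of all counts in the mutant, against 1.96%, 1.86% and 2.04% in wild type. They were grouped after their values were seen, and the table does not say what they encode. Like the family, they were lowest in mutant library 1 and highest in mutant library 3 of their line. Without mutant library 2 none of the 3 passed (edgeR adjusted p 0.08 to 0.0905). OS07G0213600 also lost its call when wild-type library 1 (0.0542) or 3 (0.0512) was left out, and OS07G0215500 when wild-type library 1 was (0.0546). Without mutant library 3 they were 41.6-fold (OS07G0215500) to 177-fold (OS07G0213600) lower.

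The other 4 falls were small, 1.78-fold to 2.51-fold. OS07G0213500, 20.0 kb before RAG1, had a log2 fold change of -1.33 (edgeR adjusted p = 0.0102), and OS07G0216100, between OS07G0215500 and inhibitor 1, had -1.33 (edgeR adjusted p = 0.0186). OS07G0213400, 22.2 kb before RAG1, was at 29.5, 38.6 and 39.7 normalized CPM in the mutant, against 67.0, 68.5 and 67.0 in wild type (log2 fold change -0.91, edgeR adjusted p = 0.00378). With total-count scaling the falls in this stretch were those of OS07G0213600, OS07G0213800 and OS07G0215500 alone, OS07G0215200 and OS07G0217600 were higher, and OS07G0213400 turned to a log2 fold change of 0.27. CHS2, a chalcone synthase of flavonoid synthesis that lies between RA16 and OS07G0215500, had no counts in any of the 6 libraries, where a count of 0 allows up to 3 in a library. OS07G0215200, also between them and like CHS2 named after its values were seen, was at 7.90 to 13.6 normalized CPM in the mutant, against 10.4 to 13.1 in wild type (log2 fold change -0.16, edgeR adjusted p = 0.617). At the far end, OS07G0217600 was at 0.602 to 2.06 normalized CPM in the mutant, against 0.324 to 1.23 in wild type (log2 fold change 0.49, edgeR adjusted p = 0.578).

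**Figure D4:**
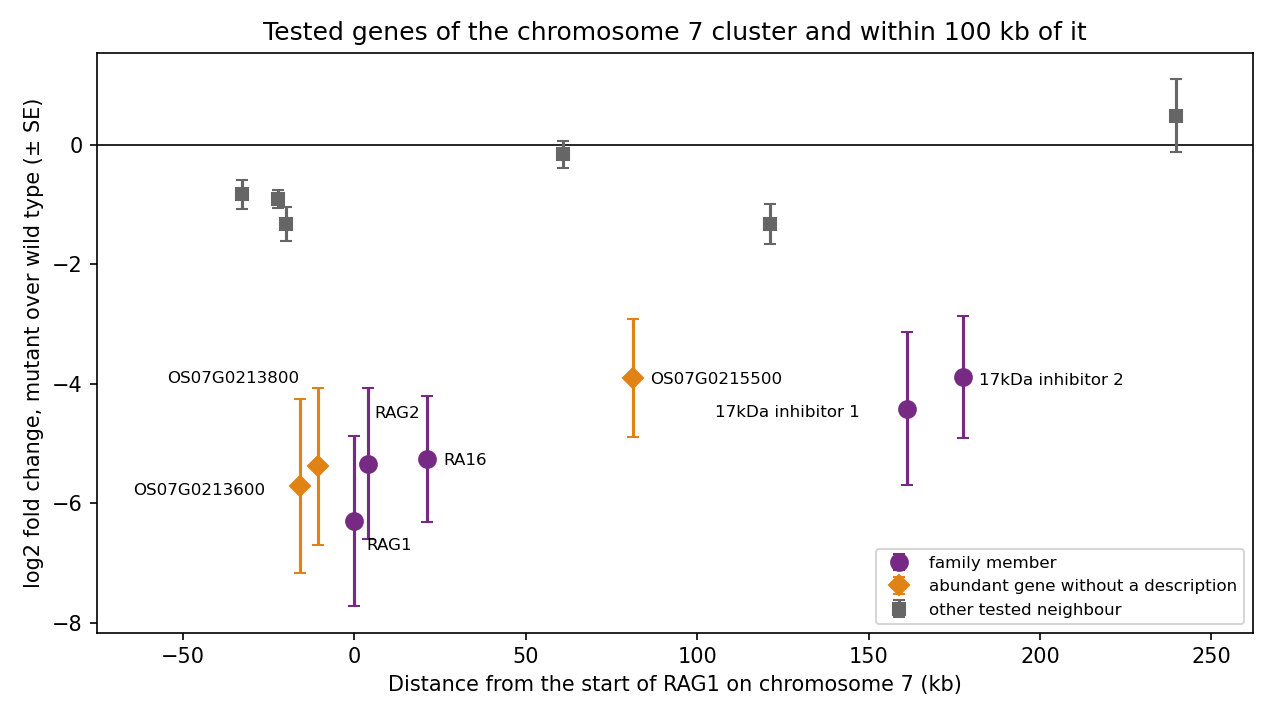
Log2 fold change ± SE of the 5 genes (purple circles), of 3 abundant genes without a description (orange diamonds) and of the other tested neighbours (grey squares) by distance from the start of RAG1 in kb. The circles and diamonds lie between -6.30 and -3.88, and the grey squares between -1.33 and 0.49, some of them within the same 178 kb.

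Storage protein genes, which share the tissue and time of expression with the family, were set beside it. The list holds 16 features described as glutelin, prolamin or globulin, 14 of them tested. In normalized CPM the mutant libraries lay below the wild-type ones in each of the 14, against 23.8% of all tested features. By FPKM this did not hold for the glutelin GLUA3, named after its values were seen. Its FPKM was 360, 5718 and 14260 in the mutant, against 12450, 18010 and 11570 in wild type. Only 1 passed the edgeR test (the PROLM7 copy OS05G0329350, log2 fold change -4.95, adjusted p = 0.008), against 15.4% lower among all tested features. The median log2 fold change was -2.98, against -5.25 for the 5 genes, and the 14 ran from -5.18 to -1.98. The most negative was the prolamin PROLM25, which did not pass (edgeR adjusted p = 0.0575). It was at 5.62, 201 and 2176 normalized CPM in the mutant, against 25190, 31820 and 29290 in wild type. By the DESeq2 Wald test 12 of the 14 were lower and by limma-voom 5, against 4071 and 3632 of all 22937 tested features. By edgeR 9 were lower without mutant library 1 and 8 without mutant library 3. Over all tested features these numbers were 3280 of 23258 and 4289 of 23806. The counts of the family per 100 storage protein counts, a ratio taken within each library, compare the groups of genes directly.

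This ratio also lay lower in every mutant library than in any wild-type library. It was 4.50, 1.66 and 1.73 in the mutant, against 7.59, 6.18 and 8.26 in wild type. Mutant library 1, which had the fewest family counts, had the highest ratio of its line. On the log2 scale the ratio differed by -1.64 between the lines, a 3.11-fold lower ratio in the mutant, and the exact permutation test (two-sided) gave p = 0.1, again the smallest possible. Against glutelins alone the log2 difference was -1.69 with the same p. Against prolamins alone it was -0.62, the lines overlapped, and p was 0.2. In log2 units that ratio was -0.64, -1.24 and -1.59 in the mutant, against -0.41, -0.81 and -0.40 in wild type.

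**Figure D5:**
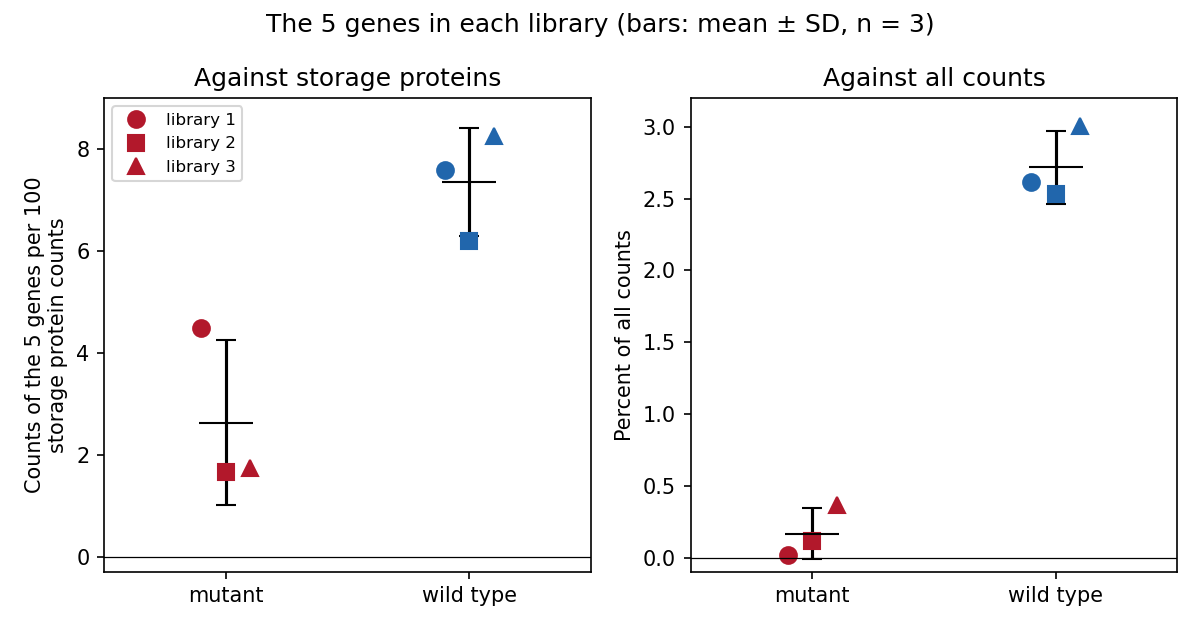
Counts of the 5 genes per 100 storage protein counts (left panel) and as a percent of all counts (right panel), with each library as a marker and mean ± SD (n = 3) for the mutant and for wild type. In both panels every mutant library lies below every wild-type library, at 1.66 to 4.50 against 6.18 to 8.26 on the left.

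Other protease and amylase inhibitors, which belong to other protein families, were called lower about as often as all tested features. Of 25 features 17 were tested, 3 fell, none rose and 14 did not pass, against 15.4% lower over all tested features, and the median log2 fold change was -0.20. RBBI3.3, a Bowman-Birk inhibitor, a class that acts on trypsin-like proteases, was at 24.1, 49.5 and 188 normalized CPM in the mutant, against 621, 479 and 789 in wild type (log2 fold change -2.85, SE 0.70, edgeR adjusted p = 0.0177). The cysteine proteinase inhibitors 3 (OS05G0409300) and 1 (OS01G0803200), which act on papain-like proteases, fell by 0.73 and 0.73 on the log2 scale (edgeR adjusted p = 0.0121 and 0.0413), and turned to log2 fold changes of 0.47 and 0.51 with total-count scaling. The xylanase inhibitor CHIB3H-H was at 60.5, 331 and 741 normalized CPM in the mutant, against 1561, 1476 and 1361 in wild type, and did not pass (edgeR adjusted p = 0.0761). RASI, which inhibits alpha-amylase and subtilisin and was singled out for that role after its values were seen, was at 70.4, 160 and 482 normalized CPM in the mutant, against 566, 380 and 583 in wild type, with overlapping lines (log2 fold change -1.10, edgeR adjusted p = 0.203). There were 4, 0 and 5 falls when mutant library 1, 2 or 3 was left out, and 1, 2 and 1 when the wild-type one was. Scaled by total count, 8 rose and 1 fell, RBBI3.3, where 16473 of all 22937 tested features were higher and 864 lower.

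The alpha-amylases, starch-cleaving enzymes for which the family is named, had no call with TMM scaling. Of 7 features 4 were tested and 0 passed the edgeR test, 1 was lower at an unadjusted p under 0.05, and 1 was lower by the DESeq2 Wald test and none by limma-voom. AMY2A was at 13.1, 31.9 and 43.3 normalized CPM in the mutant, against 65.1, 57.6 and 51.1 in wild type (log2 fold change -0.98, edgeR adjusted p = 0.0785). AMY1.4 was at 30.8, 75.9 and 96.2 normalized CPM in the mutant, against 105, 140 and 110 in wild type (log2 fold change -0.81, edgeR adjusted p = 0.131). Without mutant library 1, 1 was called lower, and without mutant library 3, 2. With total-count scaling AMY2A and AMY1.4 were at log2 fold changes of 0.11 and 0.30, and AMY1.7, which had 11, 36 and 13 counts in the mutant, against 4, 3 and 4 in wild type, was called higher (log2 fold change 2.15, edgeR adjusted p = 0.0136).

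Transcription factors of the rice endosperm were taken by locus, with names that the table mostly does not give. Of 7, 3 fell, none rose and 4 did not pass (median log2 fold change -1.16), against 15.4% lower among all tested features. Scaled by total count, 1 was lower and 1 higher, against 864 lower and 16473 higher among all 22937 tested features. NF-YB1, NAC20 and RPBF, the prolamin box binding factor, fell by 1.16, 2.05 and 1.83 on the log2 scale (edgeR adjusted p = 0.00304, 0.0236 and 0.0383). With total-count scaling these log2 fold changes were -0.0012, -1.03 and -0.81. RISBZ1, a bZIP factor that binds GCN4 motifs of storage protein promoters, was at 14.8, 46.6 and 128 normalized CPM in the mutant, against 200, 190 and 236 in wild type. The lines did not overlap, and it did not pass (log2 fold change -1.73, edgeR adjusted p = 0.0725). There were 4, 1 and 5 falls when mutant library 1, 2 or 3 was left out, and 1 when any wild-type library was.

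Markers of the tissues of the seed were read in the same libraries. Over all tested features 15.4% fell, and 31.2% passed in either direction. Of 8 embryo and aleurone markers 7 fell, and their summed level was 292 to 1451 normalized CPM in the mutant, against 3100 to 3717 in wild type. Of 6 starchy endosperm markers 1 fell (GBSSI, which makes amylose, log2 fold change -2.58, edgeR adjusted p = 0.0109), with a sum of 6123 to 18150 in the mutant and 25930 to 26370 in wild type. The DESeq2 Wald test called 5 of these 6 lower and limma-voom 4. Scaled by total count, 1 was lower and PPDK, a pyruvate phosphate dikinase, was higher (log2 fold change 1.83), and the median of the list was 0.07 in place of -1.05. For embryo and aleurone, DESeq2 and limma-voom called all 8 lower, and total-count scaling 5. Of 17 tested green pericarp markers none passed, 2 were higher at an unadjusted p under 0.05, and DESeq2 and limma-voom called none, with a sum of 1082 to 1865 in the mutant and 1271 to 1581 in wild type. Another 4 pericarp markers had no counts in any library, and every marker of the embryo, aleurone and endosperm lists had counts in at least 1. With total-count scaling 16 pericarp markers were higher, where 16473 of all 22937 tested features were higher and 864 lower. With mutant library 1, 2 or 3 left out there were 8, 4 and 8 falls for embryo and aleurone and 2, 0 and 4 for endosperm, and with any wild-type library left out 4 and 1, while pericarp had 1 fall without mutant library 1 and 2 rises without mutant library 3. The part of these tissue markers in the fall of the family was not tested.

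Among 2466 described features outside the family with a mean of at least 5 normalized CPM, those with the most similar profile over the 6 libraries were mostly storage proteins. Similarity was the root-mean-square difference of log2 normalized CPM, centred over libraries, from the mean profile of the 5 genes. The closest of these described features was the PROLM7 copy OS05G0329350, a prolamin, at 0.33. It had only 0, 14 and 76 counts in the mutant. The log2 values carry an added prior count of 2, which alone sets the value of this gene in mutant library 1. Next came the prolamin OS12G0269200 (0.74), the glutelin GLUA2 (0.80), RAB21, a dehydrin-like protein of water stress and late seed development (0.87), the glutelin GLUA1 (0.91) and PROLM20 (0.92), a prolamin further along chromosome 7. The members themselves differed from their mean profile by 0.16 (RAG2), 0.31 (RA16), 0.35 (inhibitor 1), 0.74 (inhibitor 2) and 0.92 (RAG1). Features without a description were not ranked. Among them, OS07G0213800 differed by 0.24, less than any ranked feature, OS07G0215500 by 0.91 and OS07G0213600 by 1.01. RAB21 averaged 71.6 ± 77.6 normalized CPM in the mutant, against 938 ± 320 in wild type (SD, n = 3 each), and fell by 3.71 on the log2 scale (SE 0.97, edgeR adjusted p = 0.022).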

How the data were processed

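RNA-seq of 3 mutant and 3 wild-type seed libraries was used. The authors deposited 1 table with read counts per feature and FPKM for each library, per the file headers. The submitters' processing notes list Bowtie 0.12.2. How reads were counted, with which build, annotation and strand setting, is not stated in the labels, so overlapping, antisense and similar genes are uncertain. Groups come from the genotype labels. Counts kept by filterByExpr were scaled by TMM and tested with edgeR 4.0.16 (glmQLFTest, line as the only term) in R 4.3.3, with Benjamini-Hochberg adjustment over all 22937 tested features. For single values per library an exact permutation test was used (scipy 1.17.1). Standard errors are the absolute log2 fold change over the square root of F. Fits were also run on simulated data with the same dispersion for every gene and few changed genes. This checked the code, not how the test behaves at the spread between these mutant libraries. No library was a copy of another of its line (chi-square per gene between them 10.2 to 341). Alternatives used DESeq2 1.42.0, limma 3.58.1, other scalings and filters, a replicate block and each library left out.

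The family and the lists were chosen with earlier results of these data known. Named genes were every family member, up to 4 of each list and 6 changed neighbours (within 100 kb) by smallest adjusted p, the tested neighbour next to each end of the cluster (OS07G0213800 and OS07G0217600), the 6 closest profiles and AGPL2; the text marks exceptions. FPKM for each feature, as deposited by the authors, served for levels between genes and as an alternative. The Poisson interval and the limit of 3 counts behind a 0 cover counting error only.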

Additional observations from a re-analysis of the deposited data

How the results depend on the processing

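The log2 fold change of each of the 5 genes stayed negative in every alternative run, from -8.12 to -5.41 for RAG1, -7.05 to -4.43 for RAG2, -6.74 to -4.32 for RA16, -6.36 to -3.51 for inhibitor 1 and -5.41 to -2.95 for inhibitor 2. Of the 5, 1 passed at an adjusted p under 0.01, 4 passed without a low-count filter, and 1 to 5 passed with a library left out. The share of RA16 in the family differed by -0.39 percentage points, less than the spread, and by -2.14 to 0.828 with a library left out, with the sign turned without mutant library 2 (0.135), mutant library 3 (0.828) or wild-type library 3 (0.0445).

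Falls among storage proteins numbered 2 with the replicate block, 4 with total-count scaling, 3 with total-count scaling without storage protein and seed allergen counts, 12 by DESeq2, 5 by limma-voom, 10 by limma on log2(FPKM + 1) or log2(FPKM + 0.1), and 1 to 9 with a library left out. Among other inhibitors they numbered 1 under both total-count scalings and both FPKM fits, 0 at an adjusted p under 0.01, and 0 to 5 with a library left out. For alpha-amylases they were 1 by DESeq2 and 0 to 2 with a library left out. For endosperm regulators they were 1 with total-count scaling, without a low-count filter or at an adjusted p under 0.01, and 1 to 5 with a library left out. For chromosome 7 neighbours they were 3 with total-count scaling and both FPKM fits, 4 with total-count scaling without storage protein and seed allergen counts, 1 at an adjusted p under 0.01, and 2 to 7 with a library left out. Where a library was left out, fewer samples remained, and the number of falls went up in some of these fits and down in others. The cause of these and the other changes was not tested.

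Same-numbered libraries of the lines did not deviate together (correlations of 0.0678, -0.043 and -0.0251), and 2 of 6 correlated best with their own number. With 3 libraries per line, this cannot tell whether the numbers pair them. The replicate block gave 6048 calls against 7148 without it and kept all 5 genes called, with edgeR adjusted p of 0.0084 to 0.0228. Calls over all features numbered 7148 (3529 lower, 3619 higher), against 17337 (864 lower, 16473 higher) with total-count scaling, 11691 (1606 lower, 10085 higher) with that scaling without storage protein and seed allergen counts, 15444 (868 lower, 14576 higher) and 15483 (869 lower, 14614 higher) with FPKM, and 4012 to 8329 with a library left out. In mutant library 1 depth limits OS07G0213600 (16 counts), the PROLM7 copy OS05G0329350 (0 counts, and 14 in mutant library 2) and, among the 5 genes, RAG1 (63 counts).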
